A study of Homo sapiens with 3 samples.

Results

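The RAB small GTPases were examined in HEK293T, a widely used cell line derived from human embryonic kidney and expressing SV40 large T antigen. RAB proteins mark membranes by identity: each switches between a GTP-bound form, which recruits effector proteins such as tethers and motors, and a GDP-bound form that a chaperone called GDI lifts off the membrane. Exchange factors load GTP, GTPase-activating proteins (GAPs) speed its hydrolysis, and lipid (prenyl) anchors hold the protein in the bilayer. Different members direct traffic at the Golgi, at early, recycling and late endosomes, in secretion and at the primary cilium.

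Members were the genes whose symbol in the array's platform annotation is RAB, a number and at most 1 further letter, read from probe sets that name no other gene. Where more than 1 probe set read a gene, the one with the highest mean over the arrays was used. This gave 57 RAB genes of 22395 genes measured. RAB24, RAB34, RAB43, RAB4B and RAB6C are listed only on probe sets that also name another gene and are not among the 57.

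The cells stably carried a pCDF1 lentivirus with TRAF7 G536S, with wild-type TRAF7 or with no insert (empty vector), and all 3 lines were selected in puromycin and sampled while proliferating asynchronously. TRAF7 is an E3 ubiquitin ligase, and G536S is a change in its WD40 repeats. Whether a line was a pool or a single clone, and which promoter drove the insert, is not given in the sources used here. RNA of each line was hybridised to 1 Affymetrix array, so there are 3 arrays and no replicates: no test between groups was possible, and each difference holds culture, extraction and array differences as well as that of the construct. Values are log2 intensities that the authors had normalized by RMA, which summarises the probes of a set after normalizing between arrays. Differences are the first named array minus the second on that scale, and precision is limited by the number of arrays. In RNA of a whole culture, fewer cells with a transcript and less of it per cell cannot be told apart.

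TRAF7 itself read 7.35 with G536S, 8.11 with wild type and 5.66 with empty vector. The 75th percentile of all probe sets was 1.86 with G536S, 1.85 with wild type and 1.73 with empty vector, while the median was 1.01, 1.02 and 1.04 and the highest value 12.14, 12.38 and 12.57 in the same order. The empty vector array was thus lowest at the 75th percentile and highest at the median and at the top. Of 8 markers of the HEK293 line, 6 lay at or above the median level of all genes (1.21), VIM and CDH2 among them, while NEFM and KRT8 lay below it; the summed level of the 8 was 21.2 with G536S, 21.7 with wild type and 21.5 with empty vector. These markers also differed between the arrays. VIM, 1 of 8, was at least 1.5-fold higher for wild type versus empty vector, where 2.73% of all genes were. NEFL, 1 of 8, was at least 1.5-fold lower with G536S than with wild type, where 0.929% were. For G536S versus empty vector 0 of 8 passed 1.5-fold, where 3.05% of all genes were higher and 1.07% lower. VIM read 4.74 with G536S, 5.10 with wild type and 4.34 with empty vector, and NEFL read 5.62, 6.26 and 6.01. The part of such differences between the lines in the RAB values was not tested. None of the 4 leukocyte markers measured and none of the 4 endothelial markers measured reached that level; their summed levels were 3.14, 3.30 and 3.44 and 3.57, 3.76 and 3.78 in the G536S, wild-type and empty vector arrays.

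Of the 57 RAB genes, 41 lay at or above the median level. The other 16 sat near background, where differences are compressed: RAB3C, RAB6D, RAB17, RAB19, RAB20, RAB25, RAB27B, RAB30, RAB32, RAB33A, RAB37, RAB38, RAB40A, RAB41, RAB42 and RAB44. Among these 16, the largest difference in any comparison was 0.35. Because a gene can reach the level through the array in which it is high, the family counts given here are over all 57, and level filters were tried as alternatives.

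**Figure D1:**
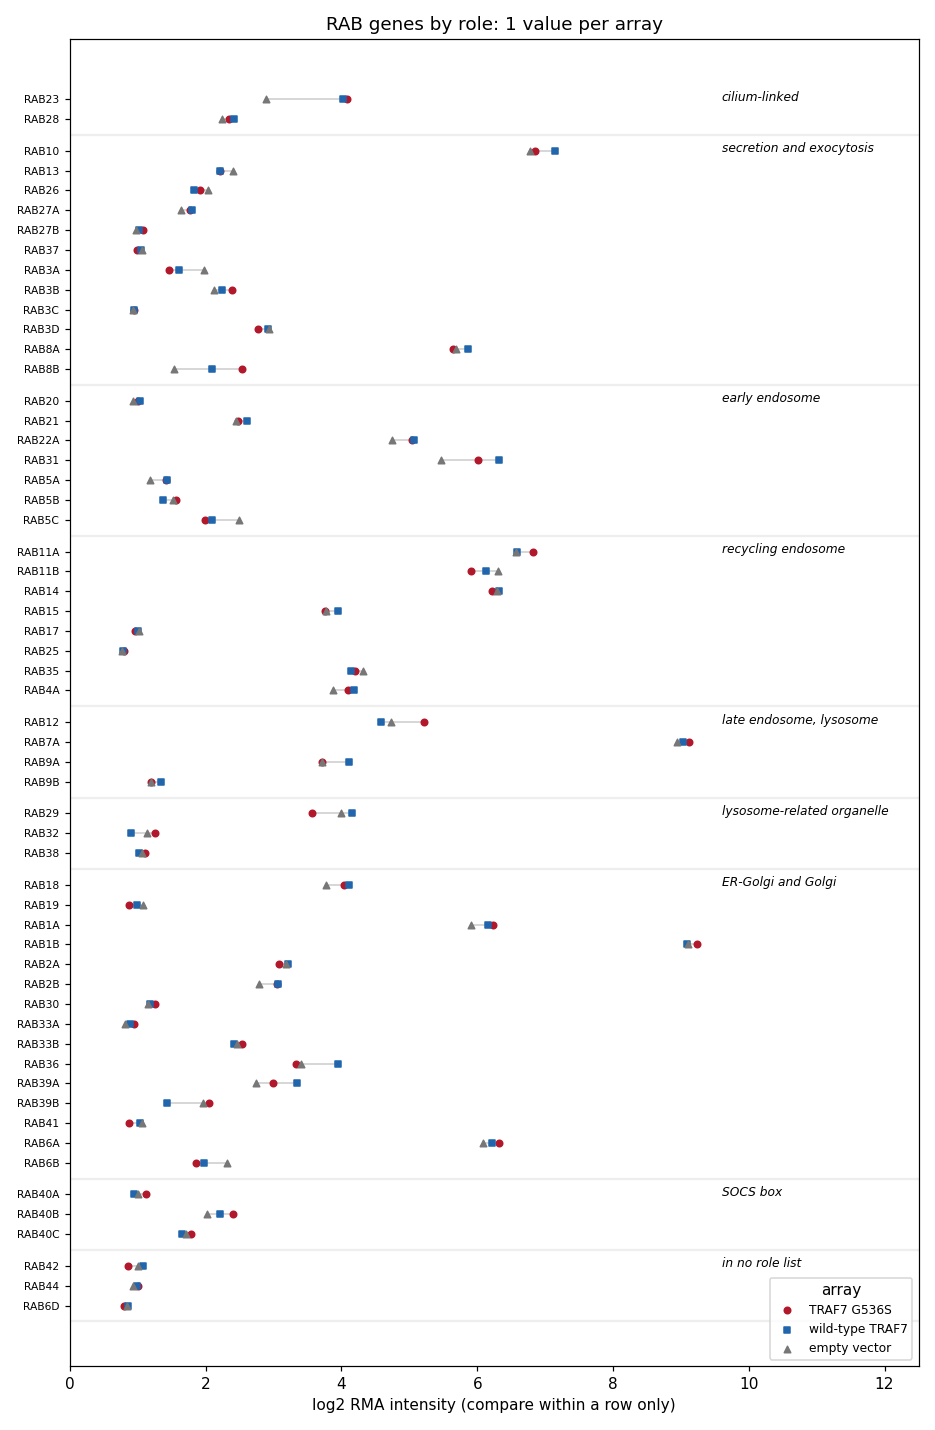
Log2 RMA intensity of each of the 57 RAB genes (x axis) in the G536S (circle), wild-type (square) and empty vector (triangle) arrays, 1 row per gene, grouped by role. Levels of different rows come from different probes and are not comparable. RAB23, RAB8B and RAB31 have the widest rows with the empty vector at the left.

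The promoters of the RAB genes that were at least 1.5-fold apart are shown first, since these are the genes on which the results turn. RefSeq promoter windows (GRCh38.p14) matched 44 of the 57 genes, and 4 of the 7 genes at least 1.5-fold apart in any comparison. The last 100 bases before the annotated start are printed 5′ to 3′ on the gene's strand, with capitals for matches to 5 motifs searched on both strands: the AP-1 site TGANTCA, the cyclic AMP response element TGACGTCA, the E-box CACGTG, the GC box GGGCGG and the CCAAT box CCAAT, with overlapping GC boxes run together. The windows are chr6:57222308-57222407 (minus strand) for RAB23, chr15:63189506-63189605 (plus) for RAB8B, chr18:9708201-9708300 (plus) for RAB31 and chr11:107928348-107928447 (plus) for RAB39A.
RAB23: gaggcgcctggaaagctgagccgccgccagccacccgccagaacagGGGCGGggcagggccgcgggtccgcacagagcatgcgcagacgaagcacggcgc
RAB8B: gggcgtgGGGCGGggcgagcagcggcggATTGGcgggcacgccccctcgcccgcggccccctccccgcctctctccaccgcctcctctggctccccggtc
RAB31: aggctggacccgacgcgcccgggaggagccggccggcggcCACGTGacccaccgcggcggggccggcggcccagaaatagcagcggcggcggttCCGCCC
RAB39A: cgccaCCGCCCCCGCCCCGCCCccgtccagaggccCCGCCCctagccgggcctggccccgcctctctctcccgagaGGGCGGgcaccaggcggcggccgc

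All 4 windows held GC box letters, RAB31 also held an E-box and RAB8B a CCAAT box on the opposite strand. Over the 250 bases before the start, GC box letters occurred in 36 of the 44 RAB promoters (81.8%), in 57.6% of the 13843 promoters of protein-coding genes measured here and in 42.3% of all 27305 promoters. CCAAT letters occurred in 12 RAB promoters (27.3%, against 34.5% of measured protein-coding genes), E-box letters in 4 (9.09%, against 7.70%), AP-1 letters in 2, RAB3B and RAB5B (4.55%, against 5.01%), and the cyclic AMP element in 1, RAB25 (2.27%, against 2.35%). None of the 4 printed genes held AP-1 letters in its 250 bases. The median GC content of the RAB windows was 64.8%, against 62.0% for all measured genes with a window. Pearson's r between GC content and the difference across the 44 RAB genes was 0.24 for G536S and 0.22 for wild type against the empty vector and 0.07 between the constructs, beside 0.07, 0.05 and 0.03 across 15489 genes. Spearman's rho across the RAB genes was 0.26, 0.24 and -0.02. Genes read from the same arrays are not independent points.

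As a family, the RAB genes were close to all genes. Against the empty vector, 2 of 57 RAB genes (3.51%) were at least 1.5-fold higher with G536S, where 3.05% of all genes were, and 0 of 57 were at least 1.5-fold lower, where 1.07% were. With wild-type TRAF7, 3 of 57 (5.26%) were at least 1.5-fold higher against a background of 2.73%, and 0 of 57 lower against 0.911%. Between the constructs, 2 of 57 (3.51%) were higher and 1 of 57 (1.75%) lower with G536S than with wild type, against 1.11% and 0.929% of all genes. Every RAB gene counted here lay at or above the median level. Of the 41 RAB genes there, 4.88% were higher and 0% lower with G536S, against 6.07% and 2.08% of all genes at that level. With wild type the shares were 7.32% and 0%, against 5.42% and 1.79%. Between the constructs they were 4.88% and 2.44%, against 2.17% and 1.81%. The counts are too small to set the family apart from these shares. After quantile normalization the counts of higher and lower RAB genes became 2 and 3 with G536S, 2 and 1 with wild type, and 1 and 2 between the constructs. The shares of all genes moved too. They became 1.59% higher and 2.25% lower with G536S, 1.59% and 1.73% with wild type, and 0.982% and 1.00% between the constructs.

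The median RAB difference was 0.08 for G536S versus empty vector and 0.05 for wild type versus empty vector, against -0.0047 and -0.00075 for all genes. It was -0.03 between the constructs, against -0.0033. Among genes at or above the median level, the median of the 41 RAB genes with G536S (0.08) was below that of all such genes (0.10), and with wild type it was above it (0.15 against 0.08). Quantile normalization moved the median of all genes at or above the median level by -0.12 for G536S and by -0.10 for wild type against the empty vector, and the median of the 57 RAB genes for G536S then lay at -0.0084. For wild type versus empty vector the median of the 57 stayed above 0, at 0.04 after quantile normalization and 0.04 after cyclic loess. With G536S the sign depends on the scaling, and with wild type the median is small and rests on 1 array per group, so no direction of the family as a whole is given. Of the 57, 41 (71.9%) lay within 0.25 of the empty vector with G536S and 41 (71.9%) with wild type. Between the constructs 47 (82.5%) differed by at most 0.25. The shares of all genes were 77.5%, 79.0% and 83.9%. At or above the median level the RAB shares were 61.0%, 61.0% and 78.0% in the same order, against 59.7%, 62.1% and 71.2% of all genes. In all, 50 of the 57 RAB genes were within 1.5-fold in every comparison. The share of all genes within 1.5-fold in every comparison was not computed. Whether the RAB count is unusual was therefore not tested.

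**Figure D2:**
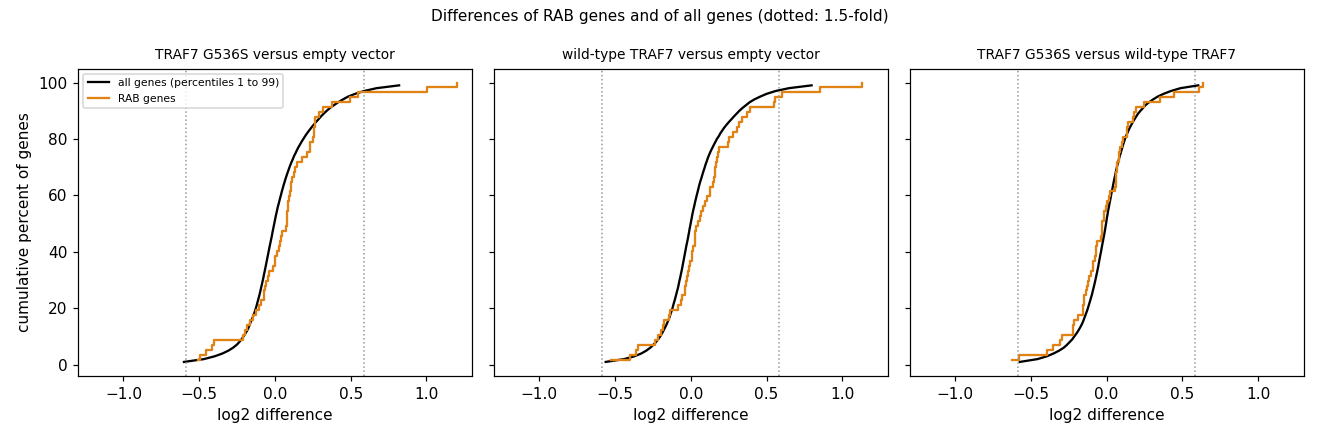
Cumulative percent of genes (y axis) by log2 difference (x axis) for the 57 RAB genes (stepped line) and all 22395 genes (smooth line, percentiles 1 to 99), with dotted lines at 1.5-fold. Against the empty vector the RAB median lies to the right of that of all genes (0.08 against -0.0047 with G536S, 0.05 against -0.00075 with wild type). Between the constructs it lies slightly to the left (-0.03 against -0.0033). RAB23 and RAB8B are the far steps in the panel of G536S versus empty vector.

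RAB23 showed the largest differences of the family from the empty vector. RAB23 is a ciliary RAB that restrains Hedgehog signalling and is mutated in Carpenter syndrome. Its probe set (17020464) read 4.09 with G536S, 4.02 with wild type and 2.89 with empty vector. The empty vector array stood alone at the low end, and the constructs lay close to each other. The difference from the empty vector was 1.20 (2.30-fold) with G536S and 1.13 (2.19-fold) with wild type; both share the single empty vector array. G536S minus wild type was 0.07. RAB23 ranked 42nd from the highest of 22395 genes for G536S versus empty vector and 52nd for wild type versus empty vector. After quantile normalization its differences from the empty vector were 1.05 with G536S and 1.00 with wild type. After cyclic loess they were 1.07 and 1.01.

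The neighbours of RAB23 on chromosome 6 were read from the same arrays. They were the next 3 protein-coding genes on each side that lay at or above the median level, with no limit on distance. ZNF451, a SUMO ligase gene, read 4.95 with G536S, 4.73 with wild type and 4.06 with empty vector (differences from the empty vector of 0.89 and 0.67). PRIM2, a DNA primase subunit, was higher than the empty vector by 0.52 with G536S and 0.23 with wild type, and BAG2, a co-chaperone, by 0.25 and 0.29. PTP4A1 was higher by 0.41 and 0.11 and PHF3 by 0.25 and 0.12, while KIAA1586 differed by 0.11 and -0.09. RAB23 had the largest difference of these 7 genes in both comparisons. With RAB23 near the top of all genes in both, that ranking was nearly fixed in advance and is no test of the locus. The only other gene in the cilium-linked role list, RAB28, was close to level, at 2.35 with G536S, 2.41 with wild type and 2.25 with empty vector. RABs filed under another role may also act at the cilium, so this list does not speak for all ciliary RABs.

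Because RAB23 acts on Hedgehog signalling, the pathway's genes were read beside it. Of 16 Hedgehog genes measured, 0 were at least 1.5-fold higher in any comparison, where 3.05% (G536S versus empty vector), 2.73% (wild type versus empty vector) and 1.11% (between the constructs) of all genes were. The 1 gene at least 1.5-fold lower was GAS1, in wild type versus empty vector, where 0.911% of all genes were. Counts over 16 genes are too small to set the list apart from these shares. GAS1, a co-receptor for the ligand, read 2.13 with G536S, 1.97 with wild type and 2.64 with empty vector (-0.52 and -0.67). CDON, another co-receptor, lay the other way, at 2.99, 2.68 and 2.46 (0.53 and 0.22). The signal transducer SMO was low in the wild-type array alone, at 2.59 with G536S, 2.10 with wild type and 2.59 with empty vector. The transcription factor GLI2 read 2.81, 2.60 and 2.25 in the same order (0.56 and 0.35). The target and receptor PTCH1 differed by -0.09 with G536S and 0.03 with wild type, and GLI1, the usual readout of the pathway, was below the median level in each array at 1.14, 1.13 and 1.20. The list median was 0.00016 with G536S and -0.03 with wild type.

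Among RABs of secretion and exocytosis, RAB8B stood out. RAB8B and RAB8A carry cargo to the plasma membrane. RAB8B (probe set 16801850) read 2.53 with G536S, 2.09 with wild type and 1.53 with empty vector, so the 3 arrays were spread out with G536S highest. Its difference from the empty vector was 1.00 (2.01-fold) with G536S and 0.56 (1.47-fold) with wild type, and G536S minus wild type was 0.45. RAB8A, by contrast, read 5.65, 5.87 and 5.69 (-0.04 with G536S and 0.18 with wild type). The 3 neighbours of RAB8B on each side on chromosome 15, taken in the same way as those of RAB23, were VPS13C, TPM1, LACTB, CA12, USP3 and HERC1. They differed from the empty vector by -0.12 to 0.31 with G536S and -0.18 to 0.27 with wild type.

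RAB3A, the RAB of synaptic vesicles, was at the low end of the family. It read 1.46 with G536S, 1.61 with wild type and 1.97 with empty vector, a difference of -0.51 with G536S and -0.36 with wild type, both within 1.5-fold. Under quantile normalization the G536S difference was -0.64, past 1.5-fold. RAB10, which brings the glucose transporter GLUT4 to the surface, read 6.86, 7.15 and 6.78, and so was 0.37 above the empty vector with wild type and 0.08 with G536S. RAB13, a RAB of tight junctions, read 2.21, 2.21 and 2.41. RAB3B was higher than the empty vector by 0.26 and 0.13, and RAB3D and RAB26 differed by at most 0.22 in any comparison. RAB27A, which docks secretory granules, had 2 probe sets that gave 0.13 and -0.13 with G536S and 0.16 and 0.03 with wild type. Of the 12 members of this role, 1 was at least 1.5-fold higher with G536S and 0 with wild type, where 3.05% and 2.73% of all genes were.

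In the early endosome group, RAB31 and RAB5C lay at opposite ends. RAB31, which moves cargo between the trans-Golgi and endosomes, read 6.01 with G536S, 6.32 with wild type and 5.47 with empty vector. Wild type was highest, 0.85 above the empty vector (1.80-fold), and G536S was 0.55 above it (1.46-fold). Its close relative RAB22A read 5.04, 5.06 and 4.75 (0.29 and 0.32). RAB5C, 1 of 3 RAB5 genes that drive early endosome fusion, read 1.99 with G536S, 2.09 with wild type and 2.49 with empty vector (-0.49 and -0.40), while RAB5A differed by 0.23 and 0.25 and RAB5B by 0.04 and -0.14. RAB5C passed 1.5-fold for G536S after quantile normalization (-0.66) and after cyclic loess (-0.61). RAB20 and RAB21 differed by at most 0.16 in any comparison.

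Of the recycling endosome members, 0 of 8 were at least 1.5-fold apart in any comparison. At the shares of all genes given above, a count of 0 among 8 genes does not set them apart. RAB11A, the main RAB of recycling endosomes, read 6.83 with G536S, 6.58 with wild type and 6.57 with empty vector. Its paralog RAB11B read 5.90, 6.12 and 6.31, so the paralogs differed from the empty vector by 0.26 and -0.41 with G536S and by 0.01 and -0.19 with wild type. A second RAB11A probe set lay near background at 0.70, 0.77 and 0.60. RAB4A, of fast recycling, differed by 0.21 with G536S and 0.30 with wild type, and RAB35 by -0.11 and -0.18. RAB14 and RAB15 differed by at most 0.19 in any comparison, and RAB17 and RAB25 by at most 0.06.

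Of the late endosome and lysosome RABs, RAB12 separated the constructs. RAB12, which sends the transferrin receptor to lysosomes, read 5.22 with G536S, 4.59 with wild type and 4.72 with empty vector. G536S was the high array, 0.64 above wild type (1.55-fold) and 0.50 above the empty vector, and wild type minus empty vector was -0.14. RAB9A, of transport from late endosomes to the Golgi, had the opposite high array: it read 3.71 with G536S, 4.10 with wild type and 3.72 with empty vector. RAB7A, the main late endosome RAB, read 9.12, 9.03 and 8.94, and RAB9B differed by at most 0.15 in any comparison.

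RAB29, at a Parkinson's disease risk locus and a partner of the kinase LRRK2, read 3.57 with G536S, 4.15 with wild type and 3.99 with empty vector. G536S was the low array, with differences of -0.58 from wild type, just inside 1.5-fold, and of -0.42 from the empty vector. After quantile normalization and cyclic loess the first difference was -0.61 and -0.59, past 1.5-fold. RAB32, which with RAB38 builds melanosomes, read 1.25, 0.90 and 1.14, near background, and RAB38 differed by at most 0.08.

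At the Golgi and between it and the endoplasmic reticulum, 15 members were measured. With G536S, 0 were 1.5-fold from the empty vector. With wild type 1 was higher than the empty vector, where 2.73% of all genes were, and between the constructs 1 was higher and 1 lower with G536S, where 1.11% and 0.929% were. RAB36, a relative of RAB34 linked to lysosome positioning, read 3.32 with G536S, 3.95 with wild type and 3.40 with empty vector. Wild type was the high array, 0.55 above the empty vector. G536S differed by -0.62 from wild type (1.54-fold lower) and by -0.07 from the empty vector. RAB39A and RAB39B, paralogs in this group by the role list, went apart. RAB39A, known from phagosomes and endosomes, read 2.99 with G536S, 3.34 with wild type and 2.74 with empty vector. RAB39B, a neuronal RAB mutated in X-linked intellectual disability with parkinsonism, read 2.04, 1.44 and 1.96 in the same order.

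For wild type versus empty vector the RAB39 paralogs thus differed by 0.60 (RAB39A, 1.52-fold) and -0.53 (RAB39B), a gap of 1.13, which was the widest of the 12 RAB subfamilies with at least 2 members in that comparison. With G536S they differed by 0.25 and 0.08. RAB39B was 0.61 higher with G536S than with wild type (1.52-fold). After quantile normalization the wild-type differences from the empty vector were 0.45 for RAB39A and -0.63 for RAB39B, so that RAB39B and not RAB39A passed 1.5-fold.

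RAB1A, which drives transport from the endoplasmic reticulum to the Golgi, read 6.23 with G536S, 6.16 with wild type and 5.91 with empty vector, and its paralog RAB1B read 9.23, 9.09 and 9.10. Both stayed well within 1.5-fold. RAB6B, the neuronal form of a Golgi RAB, read 1.86 with G536S, 1.97 with wild type and 2.32 with empty vector (-0.46 and -0.35), while the ubiquitous RAB6A read 6.32, 6.22 and 6.09 (0.23 and 0.13). RAB18, of lipid droplets, differed by 0.26 with G536S and 0.34 with wild type. RAB2A differed by -0.10 and 0.03, RAB2B by 0.26 and 0.28, and RAB33B by 0.07 and -0.04. RAB19, RAB30, RAB33A and RAB41 differed by at most 0.21 in any comparison.

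RAB40 proteins carry a SOCS box that joins them to a cullin ubiquitin ligase. RAB40B read 2.40 with G536S, 2.21 with wild type and 2.02 with empty vector. RAB40A and RAB40C differed from the empty vector by 0.11 and 0.08 with G536S and by -0.07 and -0.06 with wild type. RAB6D, RAB42 and the large, atypical RAB44, which are in no role list, sat near background. RAB6D and RAB6C are near-identical copies, so the value for RAB6D is uncertain.

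**Figure D3:**
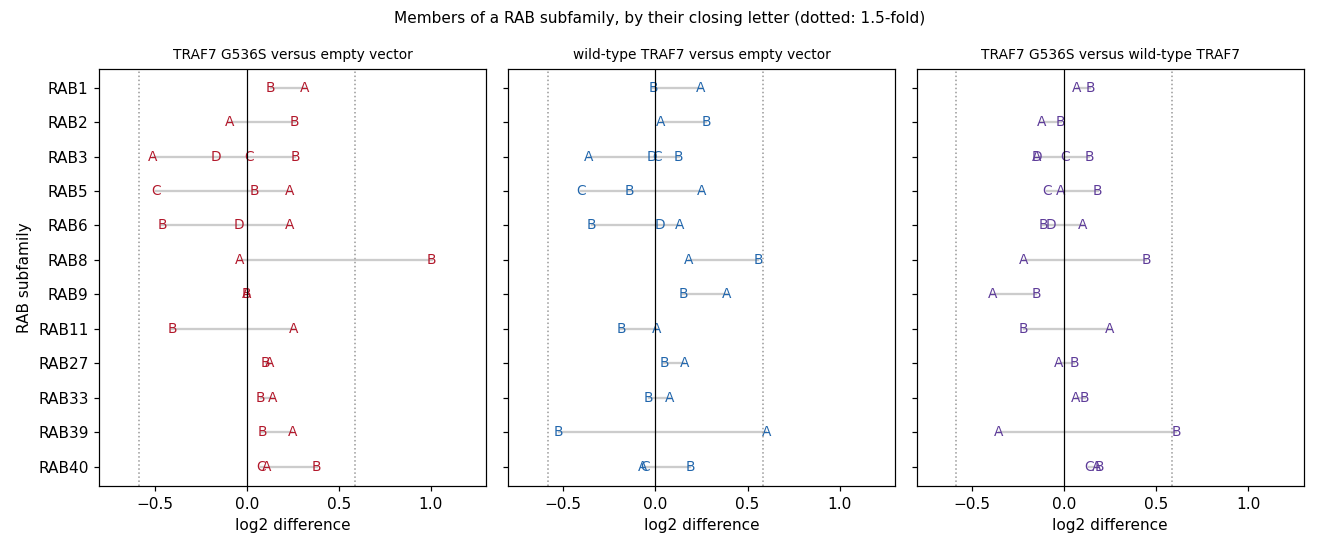
Log2 difference (x axis) of each member of the 12 RAB subfamilies with at least 2 members (y axis), each shown by its closing letter, with dotted lines at 1.5-fold. RAB8B lies apart from RAB8A in the G536S panel, RAB39A apart from RAB39B in the wild-type panel, and RAB9A and RAB9B overlap in the first panel.

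Paralogs within a subfamily were compared through their differences, since levels of different probes are not comparable. For G536S versus empty vector the widest gap was in RAB8 (1.04), followed by RAB3 (0.77), RAB5 (0.73), RAB6 (0.69) and RAB11 (0.66). The ends of these gaps were RAB8B above RAB8A, RAB3B above RAB3A, RAB5A above RAB5C, RAB6A above RAB6B and RAB11A above RAB11B. In RAB27 and RAB33 the gap was 0.02 and 0.07, and in RAB9 it was below 0.01. Gaps are not alike across subfamilies. A gap can widen with more members, and RAB3 has 4 while RAB5 and RAB6 have 3. It can narrow where a member is near background, and RAB27B (mean 1.02) and RAB33A (0.88) lay below the median level and RAB9B (1.24) just above it.

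The proteins that load, switch and read RABs were examined next. GDI2, the chaperone that recycles RABs, read 7.24 with G536S, 7.30 with wild type and 7.02 with empty vector. CHML, an escort protein for prenylation, read 5.15, 4.80 and 4.88. Of the 4 prenylation and extraction genes measured, 0 were 1.5-fold apart in any comparison. For this list and those that follow, counts are read against the same shares of all genes as for the RAB genes.

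Of 31 exchange factors, 1 was at least 1.5-fold higher with G536S and 2 with wild type, and 0 were lower. DENND2C, an exchange factor of the DENN family, read 2.06 with G536S, 2.23 with wild type and 1.26 with empty vector (0.80 and 0.97). RABGEF1, which activates RAB5, read 1.94, 2.18 and 1.58 (0.36 and 0.60). Of 14 subunits of the TRAPP complexes, which activate RAB1 and RAB11, 1 was higher with G536S: TRAPPC2 read 2.14 with G536S, 1.83 with wild type and 1.51 with empty vector. The TRAPP median was 0.24 with G536S and 0.06 with wild type.

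Of 32 GAPs, 1 was at least 1.5-fold higher with G536S, and with wild type 1 was higher and 1 lower. TBC1D9, a TBC-domain protein, read 3.18 with G536S, 3.78 with wild type and 2.93 with empty vector, and was also 1.5-fold lower with G536S than with wild type (-0.60). TBC1D7, known as a subunit of the TSC complex that restrains mTORC1, read 3.07, 2.71 and 2.41. SGSM2, a GAP that binds RAB9A, read 3.89 with G536S, 3.68 with wild type and 4.29 with empty vector (-0.40 and -0.61). The GAP median was 0.07 with G536S and 0.12 with wild type.

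Of 44 effectors, 2 were at least 1.5-fold higher with each construct and 0 lower. SYTL5, a synaptotagmin-like effector of RAB27, read 1.40 with G536S, 2.35 with wild type and 1.21 with empty vector, and so was high in the wild-type array alone; it was the 1 effector at least 1.5-fold lower with G536S than with wild type (-0.95). BICD1, the dynein adaptor that binds RAB6, read 3.16, 3.63 and 2.82. MYO5C, a class V myosin that travels with RAB8 carriers, read 2.75 with G536S, 2.21 with wild type and 1.77 with empty vector (0.98 and 0.44). MICALL1, a scaffold of RAB8 and RAB35 on recycling tubules, read 2.79, 2.66 and 2.09 (0.69 and 0.56). The effector median was 0.06 with G536S and 0.09 with wild type.

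**Figure D4:**
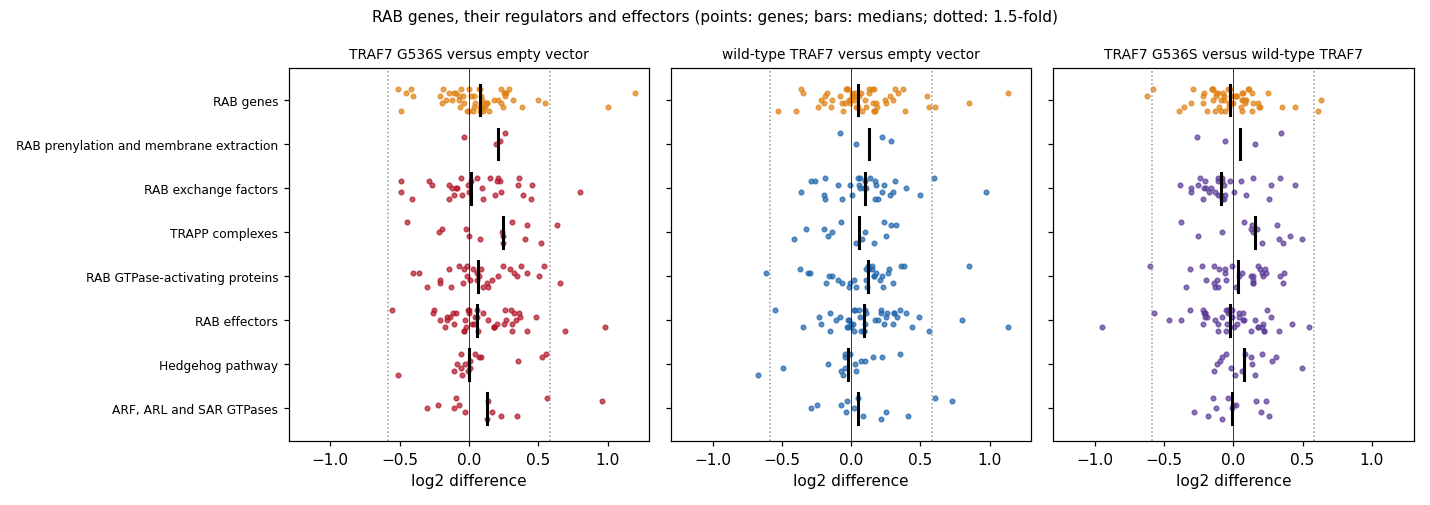
Log2 difference (x axis) of each gene (points) in the RAB family, in 5 lists of RAB regulators and effectors, in the Hedgehog list and in the ARF, ARL and SAR list (rows), with the median as a bar and dotted lines at 1.5-fold. Medians of the rows lie between -0.09 and 0.24, and most points lie inside the dotted lines.

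The ARF, ARL and SAR genes, the other large family of trafficking GTPases, were read for comparison. Of 26 listed, 13 were measured. Of these, 1 was at least 1.5-fold higher with G536S, where 3.05% of all genes were, and 2 with wild type, where 2.73% were. Counts over 13 genes are too small to set the list apart from these shares. ARL6, which recruits the BBSome coat to the cilium, was counted with both constructs and read 2.76 with G536S, 2.52 with wild type and 1.79 with empty vector. ARL3, which delivers lipid-modified cargo there, was counted with wild type and read 4.36, 4.40 and 3.80. The list median was 0.13 with G536S and 0.05 with wild type, beside 0.08 and 0.05 for the RAB genes, and with 1 array per group no difference between the families was tested.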

How the data were processed

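The 3 groups have 1 array each. The authors deposited log2 intensities, 1 per probe set, made with RMA per the submitters' processing notes. Neither the version of RMA nor the genome build is given in the sources used here, and base 2 was inferred from the highest value (12.6). Of 53617 probe sets, 23871 name 1 gene, 1842 several and 27904 none here. By Entrez ID, 22569 of the first matched a RefSeq gene table (GRCh38.p14), which gave current symbols.

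Differences, counts at 1.5-fold (0.58 on the log2 scale) and medians over all 22395 genes were computed in Python 3.11.15 (numpy 2.4.6, pandas 2.3.3), and quantile normalization and cyclic loess in R 4.3.3 (limma 3.58.1). Figures used matplotlib 3.10.9. Simulated arrays with little noise and known changes well away from 1.5-fold served to check the counting code alone. They do not speak to the accuracy of the counts in these arrays.

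Named RAB genes were those 1.5-fold apart in any comparison, the 5 highest and 5 lowest of each comparison, the member of each role list with the largest difference, and those with a second probe set. Up to 4 genes at least 1.5-fold apart and at or above the median level were named from each other list. Members named beside these, the neighbours, the motifs, the printed promoter windows and the tolerance for calling a median moved (a shift of 0.1 or more) were chosen after the values were seen. The members and lists were chosen with earlier results of these data known. Alternatives were 2 level filters (1.21 and 2.87), the mean of probe sets, quantile normalization, centring on medians, cyclic loess, a floor (0.86) and a 2-fold threshold.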

Additional observations from a re-analysis of the deposited data

Results flagged for a closer look

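For 3 RAB genes the constructs lay, in the deposited values, on opposite sides of the empty vector and at least 1.5-fold from each other. RAB12 differed from the empty vector by 0.50 with G536S and by -0.14 with wild type, and G536S minus wild type was 0.64. RAB36 differed by -0.07 and 0.55 in the same order (-0.62 between the constructs), and RAB39B by 0.08 and -0.53 (0.61). After quantile normalization RAB39B was on the lower side with both (-0.07 and -0.63) and no longer 1.5-fold apart between the constructs (0.56). After cyclic loess it was again lower with both (-0.03 and -0.61), and 0.58 apart, just inside 1.5-fold. With 1 array per group these differences between the constructs were not tested.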

How the results depend on the processing

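No paired analysis was possible because each group has 1 array. RAB23 (both constructs versus empty vector), RAB8B (G536S), RAB31 (wild type), RAB12 and RAB36 (between the constructs) stayed past 1.5-fold after quantile normalization and after cyclic loess. RAB39A (wild type, 0.45 and 0.48) and RAB39B (between the constructs, 0.56 and 0.58) did not. The mean of probe sets and the floor could not change these genes, which have 1 probe set each and lie above the floor. Centring on medians moves every gene alike. Quantile normalization gave 3 lower RAB genes with G536S and 1 with wild type, where there were 0, a RAB median of -0.0084 with G536S, and 1 higher and 2 lower between the constructs. The share of all genes that were lower rose as well, from 1.07% to 2.25% with G536S and from 0.911% to 1.73% with wild type. Cyclic loess gave 2 lower with G536S and 1 with wild type, a median of -0.00054 with G536S, and 1 higher and 2 lower between the constructs. The genes added as lower were RAB3A, RAB5C and, with quantile normalization alone, RAB6B (G536S), RAB39B (wild type) and RAB29 (between the constructs). The empty vector array's lower 75th percentile moved with these counts, and its part was not tested apart from the rescalings. Keeping genes at or above the 75th percentile left fewer RAB genes (23). Of these, 1 was higher with G536S, 3 with wild type and 1 between the constructs, where 1 was also lower. The RAB medians were 0.18 with G536S and 0.18 with wild type. Of all genes at that level, 6.54% were higher with G536S, 5.57% with wild type and 2.18% between the constructs, where 1.77% were lower. Their medians were 0.12 with G536S and 0.10 with wild type. Keeping those at or above the median level gave a RAB median of 0.15 with wild type. At 2-fold, 2 RAB genes were higher with G536S (RAB23 and, at 1.00, RAB8B), where 0.464% of all genes were. With wild type 1 was higher, where 0.397% were. Between the constructs 0 were higher and 0 lower, where 0.134% and 0.134% of all genes were. Without RAB23, an alternative chosen after seeing the data, 1 was higher with G536S, where 3.05% of all genes were. Signal near background limits the 16 RAB genes below the median level. Some members above that level also had low readings, among them RAB39B with wild type (1.44), RAB3A with G536S (1.46) and RAB8B with empty vector (1.53). The array medians were 1.01 to 1.04, so the differences of these genes may be limited too.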
